A study of Caenorhabditis elegans with 12 samples.

Results

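The microRNA miR-1 is described here through both of its mature arms, cel-miR-1-3p and cel-miR-1-5p (miR-1-3p and miR-1-5p for short), which were picked by name and are 2 of the 263 distinct mature miRNAs counted. A miRNA gene is transcribed into a hairpin, and Dicer cuts the hairpin into a duplex with a strand from each side. A strand of the duplex is kept in an Argonaute protein as the guide that silences matching mRNAs, and the other strand is mostly degraded. In *C. elegans*, miR-1 is known for its expression in body wall and pharyngeal muscle, where its 3p strand is the guide and tunes acetylcholine receptor subunits and the transcription factor MEF-2 at the neuromuscular junction.

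The worms were wild-type N2, sampled as whole individuals, so the libraries hold every tissue together. Control worms received no addition. The other 3 groups were exposed from the L4 stage to 2% glucose, either alone (Glu), with the solvent DMSO at 0.1% (DMSO + Glu), or with 25 μM naringin, a citrus flavonoid, in DMSO (Nar + Glu). All groups were kept at 20 °C for 5 d, with progeny removed by sedimentation, and each group had 3 libraries, 12 in all. The sources used here do not say how many worms went into a library or whether replicates came from separate cultures, so p-values measure the spread between libraries only.

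The gene mir-1 lies on the minus strand of chromosome I, from 6172662 to 6172757 in the WBcel235 assembly (96 bases). It does not overlap a protein-coding gene. The nearest ones are T09B4.4, 4020 bases away on the side of lower coordinates, and T09B4.3, 2438 bases away on the other side. The annotation places the 21 bases of miR-1-3p at 6172677 to 6172697 and the 22 bases of miR-1-5p at 6172716 to 6172737. A noncoding RNA gene of unnamed function, T09B4.14, is annotated on the opposite strand across the hairpin (6172671 to 6172796).

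The Nar + Glu libraries held 2640879 to 3141140 miRNA counts, those of DMSO + Glu 3267311 to 3849726, those of Glu 3033268 to 4029351 and those of Control 4990586 to 5868806. Levels are given as CPM, the count of a miRNA relative to the total of its library, either plain or after scaling with TMM (trimmed mean of M-values), edgeR's default, which rests on the miRNAs of moderate change. The Nar + Glu libraries had TMM factors of 1.17 to 1.31, and all others had factors of 0.770 to 1.00. The muscle, intestine, neuron, epidermis and embryo miRNAs listed for the check of the tissue were all found in the table.

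The guide arm miR-1-3p was the most abundant miRNA in 12 of 12 libraries and was lower in worms fed Nar. Its share of all counts was 38.1%, 48.2% and 44.9% in the 3 Control libraries, and 43.2%, 40.0% and 43.5% in Glu. The share was 38.5%, 40.8% and 39.9% in DMSO + Glu, and 34.5%, 34.6% and 28.9% in Nar + Glu. All 3 Nar + Glu libraries lay below every library of the other groups, whereas Control, Glu and DMSO + Glu overlapped one another. In these whole-worm libraries, a smaller part of the RNA from muscle and less miR-1 within muscle cannot be told apart. The 95% Wilson interval of a share reached at most 0.0551 percentage points to either side, and it covers counting error only, since reads carried no molecular identifiers.

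Depth moved with the groups, and its part in the result was not tested. Nar + Glu replicate 3, the shallowest of the 12 libraries with 2640879 counts, had the lowest share, 28.9%. The Control libraries were the deepest, with shares of 38.1% to 48.2%. In the other direction, Glu replicate 2, with 3033268 counts, was shallower than Nar + Glu replicates 1 and 2, with 3126347 and 3141140. Its share was 40.0% against 34.5% and 34.6%. The scale of the difference between Nar + Glu and DMSO + Glu depended on what the counts were set against. Per count of all other miRNAs, there were 0.625192 to 0.689244 counts of miR-1-3p in DMSO + Glu against 0.405631 to 0.529885 with Nar.

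**Figure D1:**
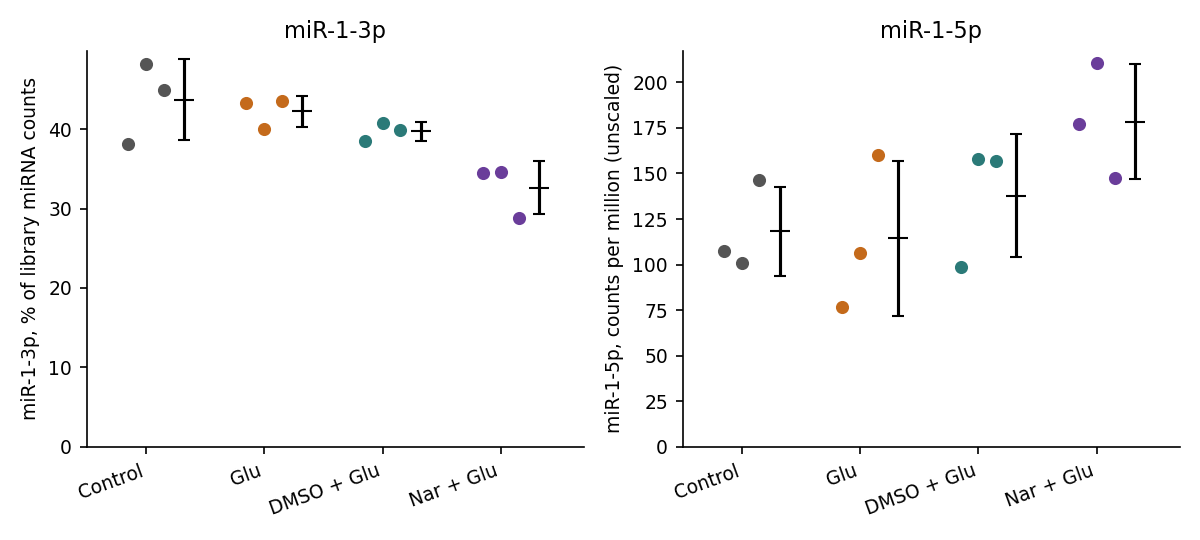
Level of the arms of miR-1 in the 12 libraries. Left, miR-1-3p as % of all miRNA counts of a library. Right, miR-1-5p in unscaled CPM. Points are libraries, 3 per group, and the bars beside them give the mean and SD. All Nar + Glu points lie lowest on the left (at most 34.6%). On the right the Nar + Glu points (147 to 210 CPM) overlap those of Glu and DMSO + Glu. They lie above those of Control (at most 146 CPM).

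Nar + Glu against DMSO + Glu asks what Nar adds to its solvent on glucose. On the TMM scale, miR-1-3p was at 429845, 406066 and 399218 CPM in DMSO + Glu and at 295403, 269912 and 220039.9 CPM in Nar + Glu. The groups did not overlap, which held for 16% of the 219 miRNAs tested in the downward direction. The log2FC of the level was −0.72 (95% interval −0.9995 to −0.45, standard error 0.130), and the adjusted p was 0.00215 (edgeR's quasi-likelihood test, Benjamini-Hochberg over all miRNAs tested). It was the fifth lowest log2FC of the 219, while 21.5% of them had an adjusted p under 0.05, of which 26 were lower and 21 higher. It also passed the fold threshold and the unadjusted p of 0.05 that the study set, as did 13.2% of the miRNAs tested. The fold threshold was missed with total counts (−0.28), with the total of the other miRNAs (−0.44) and without Nar + Glu replicate 3 (−0.54). Leaving out any one library left the level lower, with log2FC from −0.75 to −0.54 and an adjusted p of at most 0.0201 in edgeR.

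For the other arm no change was detected. miR-1-5p is the passenger strand of the hairpin and was far scarcer, with 309 to 858 counts per library. In TMM-scaled CPM it was at 110, 157 and 157 in DMSO + Glu and at 152, 164 and 112 in Nar + Glu. Each group held values near 110 and near 160, so the groups overlapped throughout. The log2FC was −0.05 (95% interval −0.38 to 0.29, standard error 0.158), with an adjusted p of 0.856 in the same edgeR test. On the TMM scale, a rise or fall of the size seen for miR-1-3p lies outside this interval, which does not cover the choice of scaling.

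The fold changes of both arms moved with the scaling, which by construction shifts them alike. With plain total counts, the log2FC of miR-1-3p was −0.28 and that of miR-1-5p 0.37, and over all 219 miRNAs the median was 0.37, against −0.06 with TMM. The miRNAs called in edgeR were then 2 lower and 89 higher, in place of 26 and 21. With the total of all miRNAs other than the arms of miR-1 as the scale, the log2FC was −0.44 for miR-1-3p and 0.22 for miR-1-5p, with a median of 0.22 over all miRNAs. The size factors of DESeq2 gave −0.68 for miR-1-3p. Thus miR-1-3p was lower under each of these scalings, with edgeR's adjusted p at most 0.00872, and the sign for miR-1-5p turned, with no adjusted p under 0.05 (0.0726 with total counts).

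**Figure D2:**
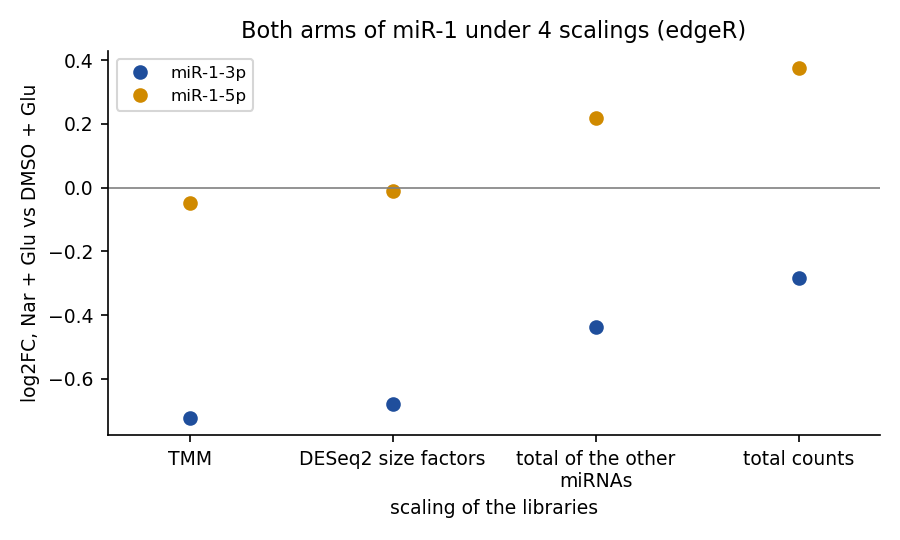
Fold change of the arms of miR-1 between Nar + Glu and DMSO + Glu under 4 scalings. The vertical axis is the log2FC from edgeR, and the horizontal axis names the scaling. miR-1-3p goes from −0.72 with TMM to −0.28 with total counts and stays below 0, and miR-1-5p goes from −0.05 to 0.37.

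A ratio taken within a library is free of scaling. For each library, the counts of miR-1-3p were set against those of each of 136 other miRNAs with a mean count of at least 100. In 131 of these 136 ratios the mean was lower in Nar + Glu than in DMSO + Glu, with a median change of −0.64 in the log2 ratio. The 5 exceptions were miR-230-3p, miR-237-5p, miR-237-3p, let-7-5p and miR-241-5p, against which the ratio rose by at most 0.08 (named after their values were seen). In 111 ratios the groups did not overlap and Nar + Glu was lower, and in 0 it was higher. All these ratios share the counts of miR-1-3p, so they are not independent of each other. They largely restate its low rank among the log2FC. How many ratios do not overlap for a typical miRNA was not counted. A lower ratio can come from less miR-1-3p or from more of the other miRNA. Against the same set of miRNAs, with miR-1-3p in place of itself, miR-1-5p had a median change of 0.03, with 61 of 136 ratios lower. Its groups did not overlap in 23 ratios, 15 lower and 8 higher. Against any other miRNA, the change for miR-1-5p is that for miR-1-3p plus 0.68, the change in the arm ratio. The results for the arms are thus not separate evidence.

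**Figure D3:**
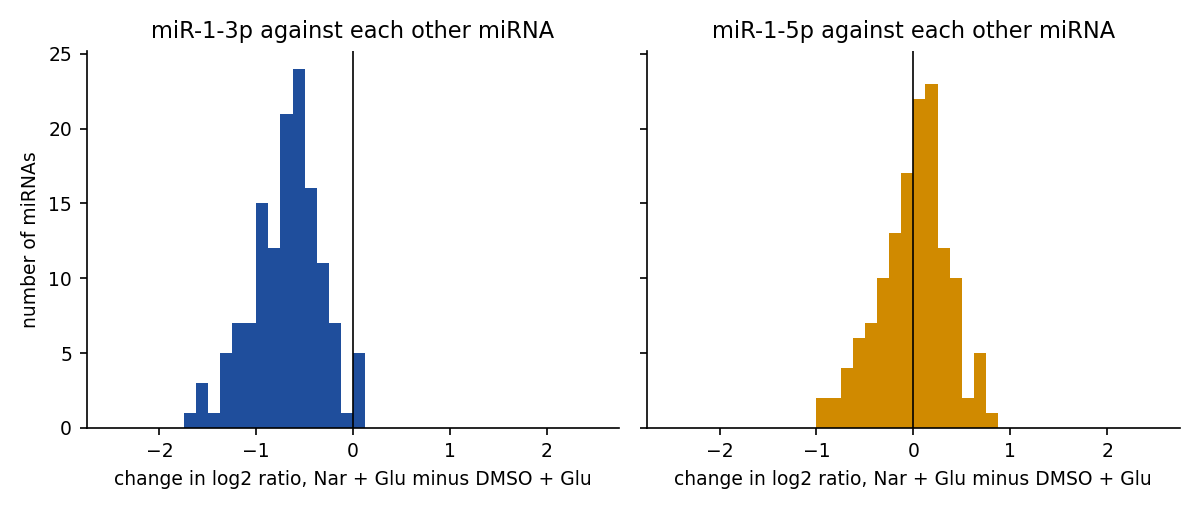
Change in the log2 ratio of an arm of miR-1 to each of 136 other miRNAs, as Nar + Glu minus DMSO + Glu. Bars count miRNAs in bins of the change, for miR-1-3p (left) and miR-1-5p (right). The left histogram is centred at −0.64 and lies almost wholly below 0, and the right one is centred at 0.03.

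The ratio of the arms was then compared between groups. In Control there were 3542, 4781 and 3071 counts of miR-1-3p for each count of miR-1-5p, and in Glu 5638, 3770 and 2717. The values were 3897, 2580 and 2544 in DMSO + Glu and 1945, 1646 and 1959 in Nar + Glu. The 3 Nar + Glu libraries had the lowest values of all, and were closer together than those of any other group. As log2 of 5p to 3p, the mean ratio of the Nar + Glu libraries was −10.85 ± 0.14, that of DMSO + Glu −11.52 ± 0.35, that of Glu −11.91 ± 0.53 and that of Control −11.86 ± 0.33 (SD, n = 3 each).

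From DMSO + Glu to Nar + Glu the log2 ratio of 5p to 3p changed by 0.68 (95% interval 0.25 to 1.10, standard error 0.202). With limma over 74 precursors (mean count of 10 or more for each arm), the unadjusted p was 0.00338 and the adjusted p 0.0833, so the change did not pass after adjustment. Of the 74 precursors, 0% passed, and 13 had an unadjusted p under 0.05 in limma. The change of miR-1 was the fifth highest of the 74, whose median was 0.12. Whether the change passed depended on which library was left out, although it stayed between 0.47 and 0.78. The adjusted p in limma was 0.0462 or 0.0386 when DMSO + Glu replicate 2 or 3 was left out, and 0.00890 when Nar + Glu replicate 3 was. Leaving out DMSO + Glu replicate 1 gave 0.476, with a change of 0.47. For Nar + Glu replicates 1 and 2 it gave 0.300 and 0.446, with changes of 0.71 and 0.59.

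**Figure D4:**
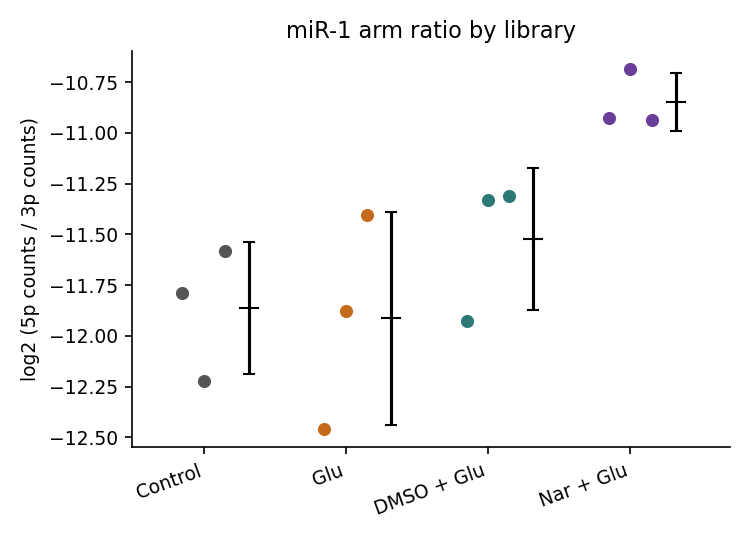
log2 of the counts of miR-1-5p over those of miR-1-3p in the 12 libraries. Points are libraries, 3 per group, and the bars beside them give the mean and SD. The Nar + Glu points lie between −10.93 and −10.68, above all 9 others.

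Replicates of a group varied in miR-1-5p by 18.3% to 28.6% (coefficient of variation of TMM-scaled CPM). Counting error has a floor of 3.41% to 5.69% for its counts, since reads without molecular identifiers are not independent molecules. For miR-1-3p the replicates varied by 14.6% in Nar + Glu, 3.90% in DMSO + Glu, 17.3% in Glu and 18.9% in Control. The DMSO + Glu libraries were thus the closest to one another for the guide arm but not for the passenger arm, at 19.1%.

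Glu against Control asks what added glucose does. The TMM-scaled level of miR-1-3p was 393217, 575596 and 478222 CPM in Control and 561452, 403924 and 446123 CPM in Glu. The ranges of the groups were nearly the same. The log2FC was −0.08 (95% interval −0.52 to 0.37), with an adjusted p of 0.864 in edgeR, where 8.52% of 223 miRNAs were called. miR-1-5p was at 111, 120 and 156 CPM in Control and at 99.6, 107 and 164 CPM in Glu. Its log2FC was −0.09 (95% interval −0.50 to 0.31), with an adjusted p of 0.821 in edgeR. The ratio of the arms differed by −0.05 on the log2 scale (95% interval −0.68 to 0.58), where 6.49% of 77 precursors passed in limma. These intervals leave room for a fall by up to 0.52 for miR-1-3p and 0.50 for miR-1-5p on the log2 scale. For a rise the limits are 0.37 and 0.31.

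DMSO + Glu against Glu tests the solvent. The log2FC of the level was −0.17 for miR-1-3p (95% interval −0.61 to 0.27) and 0.22 for miR-1-5p (95% interval −0.25 to 0.68). The adjusted p-values were 0.717 and 0.679 in edgeR. In this comparison 0% of 215 miRNAs had an adjusted p under 0.05 in edgeR, 22 had an unadjusted p under 0.05, DESeq2 called 0 and edgeR's exact test 1. The log2 ratio of the arms differed by 0.39 (95% interval −0.25 to 1.03, adjusted p = 0.642 in limma). With each library left out it was 0.12 to 0.65, and the log2FC of miR-1-5p was 0.09 to 0.52 (highest without Glu replicate 3, adjusted p = 0.0569 in edgeR). Of 71 precursors 0% passed, and 6 had an unadjusted p under 0.05 in limma.

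The remaining comparisons reuse the same libraries and are given side by side. Against Glu, Nar + Glu had a log2FC of −0.80 for miR-1-3p (95% interval −1.20 to −0.40, adjusted p = 0.0238 in edgeR, where 9.13% of 219 miRNAs were called). This call was lost without Nar + Glu replicate 1, 2 or 3, with adjusted p-values of 0.0894, 0.103 and 0.0728 in edgeR, although the log2FC stayed at −0.87, −0.84 and −0.69. Against Control, the log2FC was −0.90 (95% interval −1.32 to −0.48, adjusted p = 0.00146 in edgeR, where 47.5% of 223 miRNAs were called). With total counts as the scale these values were −0.37 and −0.42, and the medians over all miRNAs were 0.50 and 0.49. DMSO + Glu against Control had a log2FC of −0.19 (95% interval −0.57 to 0.20, adjusted p = 0.504 in edgeR, where 22.3% of 220 were called).

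For miR-1-5p, the log2FC of Nar + Glu was 0.26 against Glu (95% interval −0.22 to 0.74) and 0.14 against Control (95% interval −0.22 to 0.49). The adjusted p-values were 0.435 and 0.518 in edgeR. DMSO + Glu against Control gave 0.18 (95% interval −0.15 to 0.51, adjusted p = 0.447 in edgeR). With plain total counts the difference between Nar + Glu and Control was 0.59 with an adjusted p of 0.00489 in edgeR, so the call for this arm depended on the scaling. On the TMM scale with 1 set of factors for the 12 libraries, the order of the group means was Nar + Glu (143 ± 27.0 CPM), DMSO + Glu (142 ± 27.0), Control (129 ± 23.6) and Glu (124 ± 35.3; SD, n = 3 each), and no neighbours in it passed the test. The means of Nar + Glu and DMSO + Glu are nearly equal, and the fit on their own 6 libraries put them in the opposite order (log2FC −0.05). For miR-1-3p the order was Control (482345 ± 91259), Glu (470499.7 ± 81544), DMSO + Glu (411709.8 ± 16075) and Nar + Glu (261785 ± 38333; SD, n = 3 each), and only the last step passed the test.

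Among the comparisons of Nar + Glu, the ratio of the arms passed against Control only. There, the log2 ratio of 5p to 3p was higher in Nar + Glu by 1.02 (95% interval 0.61 to 1.42), with an adjusted p of 0.00127 in limma, where 27.6% of 76 precursors passed. It was the fourth highest change of the 76, whose median was −0.14. Against Glu the change was 1.07 (95% interval 0.46 to 1.67, adjusted p = 0.0509 in limma), the second highest of 73 precursors. Of these 0% passed and 11 had an unadjusted p under 0.05 in limma. With a library left out, the adjusted p in limma ran from 0.000550 (without Glu replicate 3) to 0.354 (without Nar + Glu replicate 2), and no other such fit passed. Between DMSO + Glu and Control the ratio differed by 0.34 (95% interval −0.02 to 0.71, adjusted p = 0.138 in limma), where 30.3% of 76 precursors passed, and with a library left out by 0.16 (without Control replicate 2, adjusted p = 0.658 in limma) to 0.54 (without DMSO + Glu replicate 1, adjusted p = 0.0295 in limma), the latter being the one such fit that passed.

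**Figure D5:**
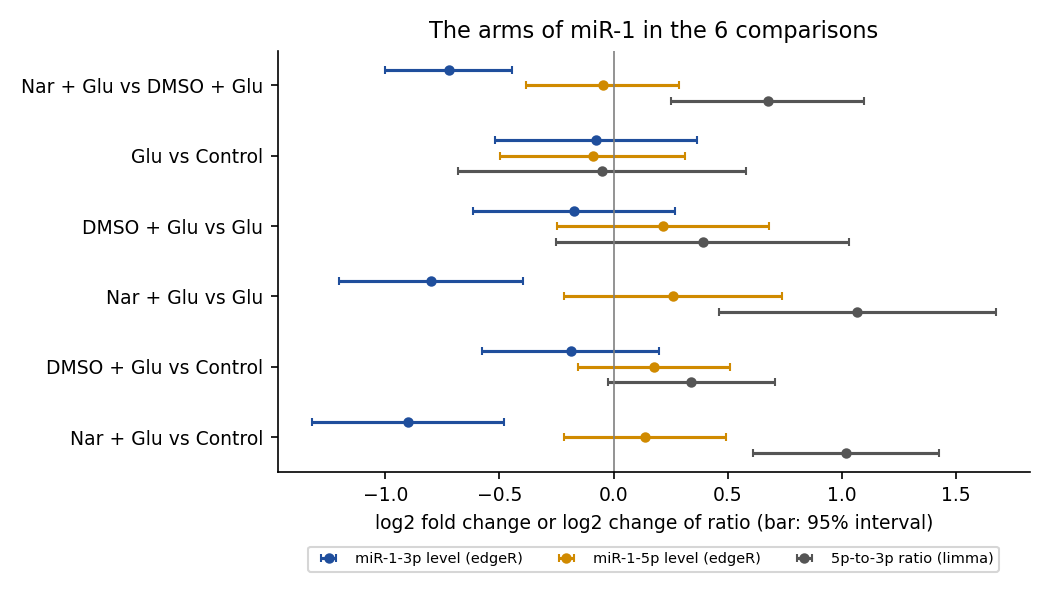
Changes of miR-1-3p, miR-1-5p and the ratio of 5p to 3p in the 6 comparisons. The horizontal axis is the log2FC (edgeR) or the change in the log2 ratio (limma), and bars are 95% intervals. In the 3 comparisons of Nar + Glu the interval of miR-1-3p lies below 0 and that of the ratio above 0, while the intervals of miR-1-5p include 0 in all 6.

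Exact permutation tests on a single value per library gave the smallest p that 3 libraries against 3 allow, 0.1, for the share of miR-1-3p in each of the 3 comparisons of Nar + Glu. The mean share was 32.7% ± 3.29 in Nar + Glu against 39.7% ± 1.17 in DMSO + Glu, 42.3% ± 1.94 in Glu and 43.7% ± 5.14 in Control (SD, n = 3 each). The differences were −7.06, −9.61 and −11.1 percentage points (two-sided exact permutation p = 0.1 each, 0.2 after Benjamini-Hochberg adjustment over the 6 comparisons). The exact permutation p was 0.8 for Glu against Control, 0.2 for DMSO + Glu against Glu and 0.4 for DMSO + Glu against Control. This design cannot reach 0.05.

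The next most abundant miRNAs show how far miR-1-3p stood above the rest. miR-58a-3p, a member of the bantam family, was second in 12 of 12 libraries. For each of its counts the Nar + Glu libraries held 1.89 to 2.79 counts of miR-1-3p, those of DMSO + Glu 2.56 to 3.45, those of Glu 2.54 to 4.70 and those of Control 2.46 to 4.79, so these ranges overlapped. The log2FC of miR-58a-3p with Nar against DMSO + Glu was −0.42 (adjusted p = 0.0642 in edgeR). Of the next 3, miR-70-3p had a log2FC of −0.26 (adjusted p = 0.136 in edgeR) and miR-37-3p of −0.44 (adjusted p = 0.0606 in edgeR). miR-35-3p, an embryonic miRNA, fell by 0.52 on the log2 scale with TMM (adjusted p = 0.0141 in edgeR). None of these 4 had as low a log2FC as miR-1-3p.

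The miRNAs with the pattern most like that of miR-1-3p were found by the SD, over the 12 libraries, of the log2 ratio of the counts, which does not depend on scaling. The smallest SDs among 136 miRNAs were those of miR-237-5p (0.250), miR-82-5p (0.254), let-7-5p (0.271), miR-235-3p (0.277) and lin-4-5p (0.280), against a median of 0.476. miR-237-5p is a relative of lin-4-5p, and lin-4-5p and let-7-5p are the classical regulators of larval timing. With Nar against DMSO + Glu the log2FC of these 5 on the TMM scale was −0.80, −0.48, −0.75, −0.40 and −0.48. They were chosen for following miR-1-3p over these same libraries, so these values describe the choice and carry no test. By the same measure miR-1-5p was only 89th of the 136 in its likeness to miR-1-3p, with an SD of 0.542.

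For miR-1-5p the closest were miR-234-3p (SD 0.169) and the pair miR-45-3p and miR-44-3p (0.186 for both, since their counts are identical), against a median of 0.388. With Nar against DMSO + Glu both miR-234-3p and miR-45-3p had a log2FC of −0.21, given as a description for the same reason. The guide arm of its own hairpin was 121st of 136.

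miRNAs listed for other tissues were compared with miR-1-3p over Nar + Glu and DMSO + Glu. Whether each is confined to the tissue of its list was not tested. Of the 5 timing miRNAs listed for the epidermis, 4 fell and 0 rose on the TMM scale. There, 11.9% of all 219 miRNAs were called lower and 9.59% higher. The 4 that fell are given next. These were let-7-5p (log2FC −0.75, adjusted p = 0.00215 in edgeR) and lin-4-5p (log2FC −0.48, adjusted p = 0.0112 in edgeR), both already met among the closest in pattern, and miR-48-5p (log2FC −0.34, adjusted p = 0.0436 in edgeR) and miR-241-5p (log2FC −0.71, adjusted p = 0.00480 in edgeR), which are let-7 relatives. miR-84-5p, also a let-7 relative, had a log2FC of −0.21 (adjusted p = 0.244 in edgeR). With total counts as the scale 0 of the 5 passed, from −0.31 for let-7-5p to 0.23 for miR-84-5p, and miR-48-5p turned to 0.09. On the TMM scale the median of these 5 was −0.48, against −0.06 over all 219 miRNAs. Their summed level was 15523 to 15991 CPM in DMSO + Glu and 11775 to 13751 CPM in Nar + Glu, and its part in the result for miR-1-3p was not tested.

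Of the 8 embryonic miR-35 family guides, 1 fell (miR-35-3p) and 0 rose on the TMM scale, a share near the 11.9% over all miRNAs, with a median log2FC of −0.16. With total counts as the scale miR-35-3p was at −0.07 (adjusted p = 0.644 in edgeR). Their summed level was 122848 to 168324 CPM in DMSO + Glu and 98962 to 124162 CPM in Nar + Glu. The intestinal miR-60-3p had a log2FC of 0.19 (adjusted p = 0.257 in edgeR), and with total counts it rose by 0.62 (adjusted p = 0.000582 in edgeR). Of the 3 neuronal miRNAs, miR-124-3p, lsy-6-3p and miR-791-3p, 0 passed the test on the TMM scale, with a median log2FC of 0.65 at mean counts of 22 to 27.6 per library. With total counts all 3 passed, with adjusted p-values of 0.000804 for miR-124-3p, 0.00604 for lsy-6-3p and 0.00531 for miR-791-3p in edgeR, but on that scale 40.6% of all 219 miRNAs were called higher. In DMSO + Glu these 3 summed to 12.9 to 18.0 CPM and in Nar + Glu to 20.6 to 27.4 CPM.

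Another worm miRNA, miR-796, is known to have the same seed as miR-1-3p, and was added after its values were seen. Its gene is on chromosome X (1798928 to 1799016). It was scarce, with 16 to 37 counts per library, and its levels of 4.59 to 8.71 CPM in DMSO + Glu and 5.21 to 9.05 CPM in Nar + Glu overlapped. The log2FC was 0.08 (95% interval −0.54 to 0.70, adjusted p = 0.859 in edgeR). At this depth and on the TMM scale, a fall of the size seen for miR-1-3p lies outside the interval, and a rise of that size just outside it.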

How the data were processed

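Small RNA of 12 libraries of whole worms was sequenced on an Illumina NextSeq. The authors trimmed reads with Cutadapt 1.14, counted them per mature miRNA with mirdeep2 and deposited the raw counts, not normalized, per library and as a combined table (equal in 12 of 12 libraries). The miRBase release and the treatment of multi-mapping reads are not stated in the sources used here. Of 268 entries, the first of each of 5 repeated names was kept. No replicates agreed within counting noise (chi-square per degree of freedom from 20.5), so none was treated as a repeated deposit of another.

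Each pair of groups was fitted on its 6 libraries with edgeR 4.0.16 (R 4.3.3): TMM, filterByExpr (minimum count 10, total 15), quasi-likelihood test, Benjamini-Hochberg adjustment over all miRNAs tested. Arm ratios used limma 3.58.1 with a pseudocount of 0.5. Values per library were compared with exact permutation tests (scipy 1.17.1, two-sided). TMM-scaled CPM used 1 set of factors for the 12 libraries. Gene positions come from RefSeq and Ensembl annotations of WBcel235. Alternatives were other scalings, DESeq2 1.42.0, edgeR's exact test, other filters, 1 fit of all libraries, a replicate block and leaving out each library. The procedure was run on simulated data. For levels, rises and falls were planted there in equal number, so the choice of scaling was not tested.

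miRNAs named are the members, the 4 next in abundance, the 5 and 3 closest in pattern, and tissue list members past an adjusted p of 0.05. Other tissue list members, the exceptions among the ratios and miR-796 were named after their values were seen. Members and lists were chosen with earlier results of these data known. Sequences are not printed here.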

Additional observations from a re-analysis of the deposited data

How the results depend on the processing

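Against DMSO + Glu, the fall of miR-1-3p with Nar passed an adjusted p of 0.05 under every alternative run, as did its fall against Control. Against Glu it was −0.78 and no longer passed with a mean count of at least 100 (adjusted p = 0.0520 in edgeR, with 8.68e-05 to 0.103 over its alternatives), and leaving out each library gave −0.91 to −0.64. The log2FC of miR-1-5p with Nar against DMSO + Glu turned to 0.37 with total counts, 0.22 with the total of the other miRNAs, 0.0057 with no filter, 0.064 with a mean count of at least 100 and 0.014 with all 12 libraries in 1 fit. It was −0.19 to 0.16 with each library left out. Against Control it was 0.59 with total counts and passed. The change in the arm ratio against Glu passed with a pseudocount of 5 (1.06, adjusted p = 0.0497 in limma) and with all 12 libraries in 1 fit (1.07, adjusted p = 0.0151), and against Control (1.02) the exact permutation test gave its smallest p of 0.1. With each library left out, the arm ratio changed by 0.47 to 0.78 for Nar + Glu against DMSO + Glu, 0.80 to 1.32 against Glu, −0.30 to 0.22 for Glu against Control and 0.16 to 0.54 for DMSO + Glu against Control. For Glu against Control, leaving out libraries gave −0.21 to 0.095 for miR-1-3p, −0.30 to 0.050 for miR-1-5p and −4.28 to 0.76 percentage points for the share. For DMSO + Glu against Control it gave −0.013 to 0.33 for miR-1-5p. Where a call or sign turned, the cause was not tested. Leaving out the permutation tests, which cannot pass, 212 of 240 alternative values for the arms and their ratio kept their direction and side of the threshold. Most of these values belong to results that did not pass in the main fit. Those counted as kept by holding their sign and not passing.

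The number of miRNAs called over all alternatives was 17 to 91 for Nar + Glu against DMSO + Glu (47 in the report), 4 to 47 for Glu against Control (19), 0 to 12 for DMSO + Glu against Glu (0), 0 to 83 for Nar + Glu against Glu (20), 24 to 59 for DMSO + Glu against Control (49) and 80 to 116 for Nar + Glu against Control (106). Libraries with the same replicate number did not deviate together throughout (correlations from −0.55 to 0.54). Among Control, Glu and DMSO + Glu the correlations were 0.0095 to 0.48. Of the 6 libraries of a comparison, 5 (Glu against Control), 3 (DMSO + Glu against Glu) and 4 (DMSO + Glu against Control) were closest to their own number. For Nar + Glu the correlations were −0.55 to 0.02 against Glu and Control, with 0 of 6. Against DMSO + Glu they were −0.45 to 0.54, with 2 of 6. Whether equal numbers mark a shared batch was not tested, and the main fits did not pair libraries. With the replicate number as a block, the log2FC of miR-1-3p with Nar against DMSO + Glu was −0.73 (adjusted p = 0.0112 in edgeR), the arm ratio changed by 0.68 (adjusted p = 0.140 in limma), and no call of either arm or of the ratio changed. The block gave 27 calls over all miRNAs for Nar + Glu against DMSO + Glu, 47 for Glu against Control and 13 for Nar + Glu against Glu. Depth limits miR-1-5p and miR-796 more than miR-1-3p.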
